A study of Mus musculus with 5 samples.

Results

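Cytokine receptors other than the IL-2 receptor were examined for Runx3 binding and for H3K4me1, the monomethylated form of lysine 4 of histone H3, in IL-2-activated mouse CD8+ T cells (CD8-TC). The 10 genes were Il21r, Il4ra, Il7r, Il15ra, Il12rb1, Il12rb2, Il18r1, Il18rap, Il10ra and Ifngr1, of 22350 protein-coding genes. They were chosen by name with earlier results of these data known. Their members among the called regions were chosen by position, as every Runx3-bound or H3K4me1-marked region that touched a gene body or the 20 kb on either side of it. This gave 27 of 9135 Runx3-bound regions and 49 of 18992 H3K4me1-marked regions. The windows of the adjacent genes Il4ra and Il21r overlapped, as did those of Il18r1 and Il18rap, so 5 of the Runx3-bound and 9 of the H3K4me1-marked regions lay in 2 windows and were counted once.

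The cells were splenic CD8+ T cells of ICR mice, with no mutation named in the labels, isolated on anti-CD8 magnetic beads. All of them had been TCR-activated for 2 days on plates coated with anti-CD3e with soluble anti-CD28 and then kept for 4 days with 100 u/ml recombinant human IL-2. There was no untreated group, so nothing here is a response to IL-2. The groups were 2 libraries precipitated with an in-house polyclonal anti-Runx3 antibody, 2 with non-immune serum (NIS) as control and 1 with anti-H3K4me1 antibody, a number that the protocol in the labels gives as 2. Peaks were called once per antibody on joined reads against NIS, and the lists hold positions only. The lists give no height, read number or replicate value for a region, so the depth behind each one is unknown, and no test between samples was possible. Age and the number of mice were not given in the labels. The cell type was set against marker genes by their called regions, since these libraries do not measure expression, which the study measured by microarray. All 5 markers of CD8 T cells (Cd8a, Cd8b1, Cd3e, Gzmb and Prf1) had Runx3-bound and H3K4me1-marked regions in their windows. Over all protein-coding genes the shares were 34.2% for Runx3 and 39.4% for H3K4me1. Of 5 genes of B cells, myeloid cells and NK cells, Klrb1c had 2 Runx3-bound and 6 H3K4me1-marked regions, and Ms4a1, Csf1r, Lyz2 and Ncr1 had 0 of either.

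Runx3 is a RUNX family TF that is abundant in cytotoxic lymphocytes and binds DNA through its Runt domain together with a partner subunit. H3K4me1 is a histone mark that is abundant at enhancers and is often low right at active transcription start sites. The receptors of the 10 genes are assembled from chains that signal through JAK kinases and STAT factors, except the IL-18 receptor. The IL-18 receptor signals through an adaptor of the Toll-like receptor family. The receptors for IL-4, IL-7, IL-15 and IL-21 share the common gamma chain with the IL-2 receptor, and the chains they carry decide to which growth, survival and differentiation signals a CD8-TC responds.

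The sequences below carry the RUNX motif, here the word TGTGGT, the word TGTGGC, the word TGCGGT or the word TGCGGC on either strand, in Runx3-bound regions of the genes. They are from the C57BL/6J reference of mm9 (NCBIM37), plus strand, 5′ to 3′, and not from the ICR cells. Regions are named by the gene with the nearest start, among those of the 10 whose window they touched, and numbered along the chromosome. Capitals mark the motif, and on the minus strand its reverse complement. The first is a stretch of the widest Runx3-bound region, upstream of Il21r, with 5 of its 11 motifs. The second holds all 3 motifs of the region in the first part of Il21r. The others are 1 stretch from each further gene with a motif, cut to the 30 bases around the motif where it lay in an exon.
Il21r R2, chr7:132736172-132736471: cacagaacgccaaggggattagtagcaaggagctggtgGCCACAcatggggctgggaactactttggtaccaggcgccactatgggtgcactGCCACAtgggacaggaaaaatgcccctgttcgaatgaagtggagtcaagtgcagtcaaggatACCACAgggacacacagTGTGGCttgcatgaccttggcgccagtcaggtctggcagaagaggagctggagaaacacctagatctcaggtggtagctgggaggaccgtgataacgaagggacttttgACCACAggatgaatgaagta
Il21r R6, chr7:132750890-132751129: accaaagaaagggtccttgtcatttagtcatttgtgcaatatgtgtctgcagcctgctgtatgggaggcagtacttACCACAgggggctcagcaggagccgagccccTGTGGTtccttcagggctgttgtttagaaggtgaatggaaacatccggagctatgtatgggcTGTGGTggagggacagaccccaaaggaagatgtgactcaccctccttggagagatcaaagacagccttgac
Il4ra R1, chr7:132699206-132699325: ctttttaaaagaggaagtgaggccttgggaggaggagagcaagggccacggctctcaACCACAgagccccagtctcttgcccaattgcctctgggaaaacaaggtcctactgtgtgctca
Il7r R1, chr15:9459611-9459640: tgtgcctgctaaACCACAgacagggaacta
Il18r1 R3, chr1:40532721-40532840: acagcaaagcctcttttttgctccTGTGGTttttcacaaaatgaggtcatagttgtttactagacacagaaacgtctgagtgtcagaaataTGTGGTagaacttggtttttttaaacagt
Il18rap R1, chr1:40572226-40572255: caactaaacctaACCACAacccctttcttg
Il12rb1 R2, chr8:73335409-73335528: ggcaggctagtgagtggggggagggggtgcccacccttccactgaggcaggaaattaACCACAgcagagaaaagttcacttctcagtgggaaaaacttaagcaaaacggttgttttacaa
Il12rb2 R4, chr6:67326195-67326314: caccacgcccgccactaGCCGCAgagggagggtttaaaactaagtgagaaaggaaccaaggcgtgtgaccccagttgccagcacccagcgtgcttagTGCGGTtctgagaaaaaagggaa
Il10ra R1, chr9:45055620-45055739: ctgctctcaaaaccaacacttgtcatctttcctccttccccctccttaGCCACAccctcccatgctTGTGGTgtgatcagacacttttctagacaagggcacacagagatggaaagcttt
Ifngr1 R2, chr10:19316704-19316823: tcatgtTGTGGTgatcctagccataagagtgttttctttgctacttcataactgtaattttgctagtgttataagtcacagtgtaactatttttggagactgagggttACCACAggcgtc
In 3 regions no RUNX motif was found. They are shown with another motif in capitals, namely AP-1 (TGACTCA or TGAGTCA) in Il12rb2 R3 and Il10ra R2 and ETS (the word AGGAAA, the word AGGAAG, the word CGGAAA or the word CGGAAG) in Il12rb1 R1.
Il12rb2 R3, chr6:67317272-67317391: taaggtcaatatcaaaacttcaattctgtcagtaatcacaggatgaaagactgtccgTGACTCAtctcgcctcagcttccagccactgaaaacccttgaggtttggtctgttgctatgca
Il10ra R2, chr9:45060200-45060319: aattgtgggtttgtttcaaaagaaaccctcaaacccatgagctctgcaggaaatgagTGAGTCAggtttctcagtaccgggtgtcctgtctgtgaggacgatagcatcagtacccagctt
Il12rb1 R1, chr8:73330592-73330711: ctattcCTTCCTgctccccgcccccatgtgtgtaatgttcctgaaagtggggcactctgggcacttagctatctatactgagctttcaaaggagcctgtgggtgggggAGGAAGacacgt

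A Runx3-bound region lay in the window of 9 of the 10 genes, Il15ra being the exception. The share was 34.2% over all protein-coding genes and 39.8% over the genes whose windows had a length between the shortest and the longest window of the 10, 52.98 to 124.9 kb. The number of Runx3-bound regions per window was 7 for Il21r, 6 for Il4ra, 5 for Il12rb2, 4 for Il18r1, 3 for each of Il12rb1 and Ifngr1, 2 for Il10ra, 1 for each of Il7r and Il18rap and 0 for Il15ra. The counts of Il21r and Il4ra share regions, as do those of Il18r1 and Il18rap. The median was 3, and 0 over all genes. There were 3 or more regions at 6 of the 10 genes compared to 5.43% of all genes. Within the gene body proper, 8 of 10 genes had a Runx3-bound region compared to 18.1% of all genes. The shares for 3 or more regions and for gene bodies were not matched for length. The median window of the 10 genes was 67.95 kb, and 55.43 kb over all genes. Neighbouring genes in this order differ by at most 1 region, and no replicate value says how large a difference in counts is beyond error. The plot of positions shows these regions beside each gene.

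**Figure D1:**
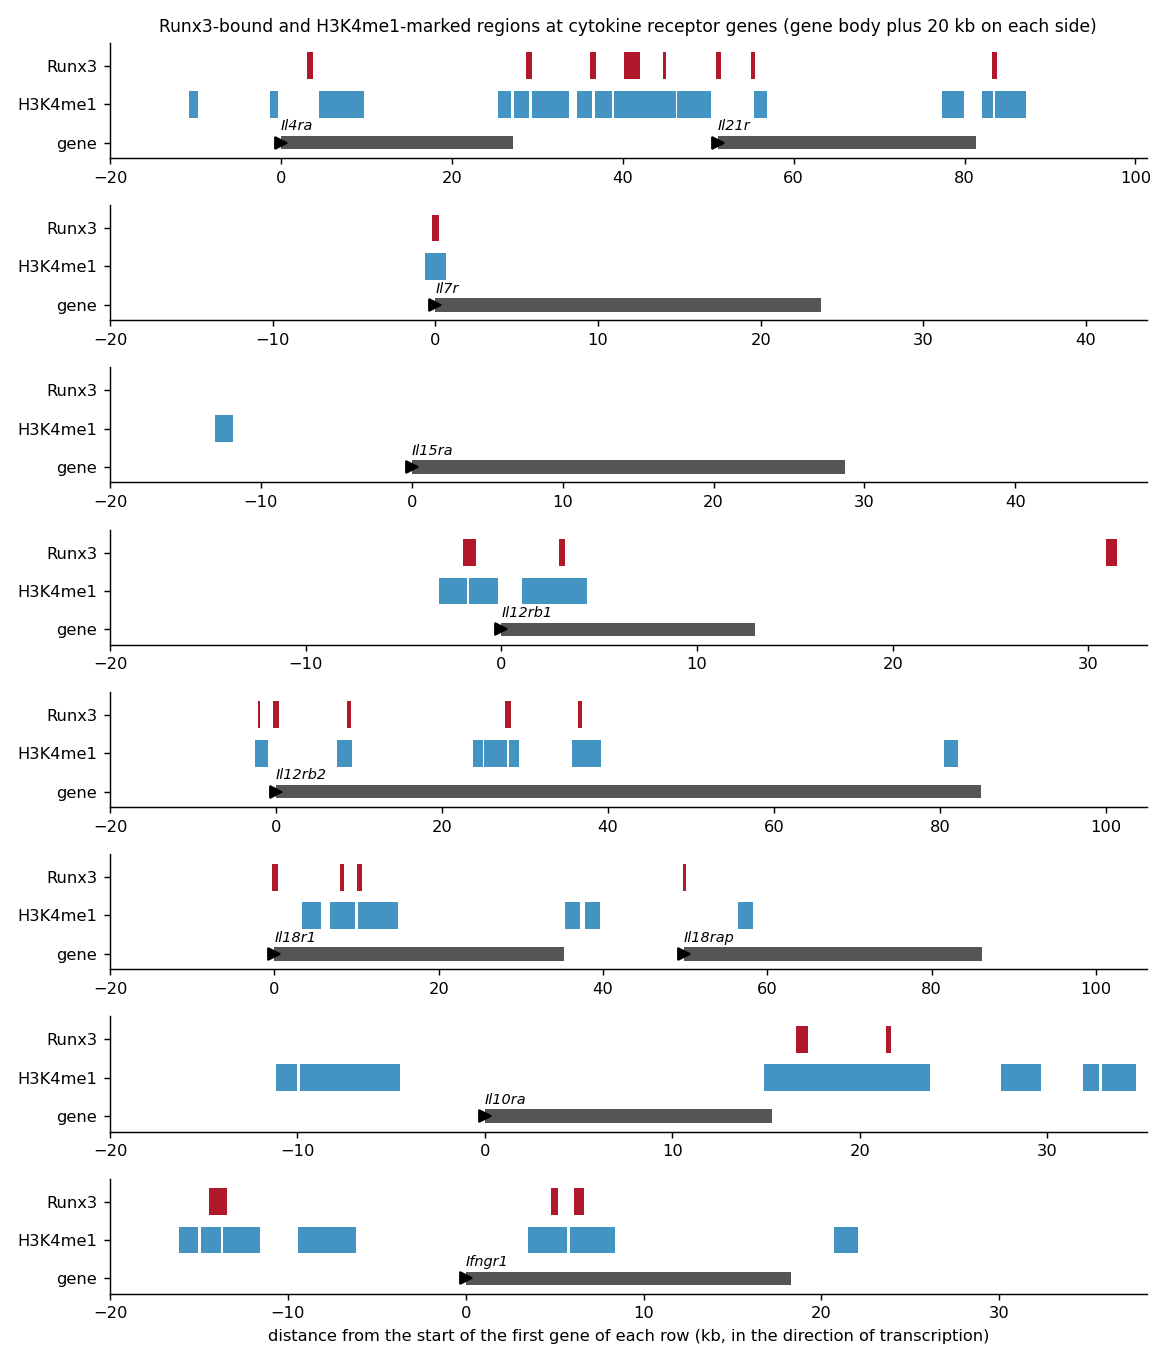
Called regions at the 10 genes. Each row is a locus, the x axis is the distance in kb from the start of its first gene in the direction of transcription and spans the windows, red boxes are Runx3-bound regions, blue boxes are H3K4me1-marked regions and grey bars are gene bodies with a black arrowhead at the start. The Il4ra and Il21r row is the densest, and the Il15ra row has no red box.

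H3K4me1 was called in the windows of 10 of 10 genes compared to 39.4% of all genes, a share not matched for window length. The number of H3K4me1-marked regions was 12 for Il4ra, 11 for Il21r, 8 for Il12rb2, 7 for Ifngr1, 6 for Il10ra, 5 for Il18r1, 4 for Il12rb1, 3 for Il18rap and 1 for each of Il7r and Il15ra. As a share of the window in base pairs, H3K4me1 covered 40.0% at Il4ra, 37.9% at Il21r, 36.2% at Il10ra, 23.4% at Ifngr1, 18.2% at Il18r1, 11.7% at Il12rb1, 11.1% at Il12rb2, 6.97% at Il18rap, 2.04% at Il7r and 1.66% at Il15ra. Il4ra, Il21r and Il10ra stood at the top of this range. A cover as high as theirs was found at 0.161%, 0.210% and 0.268% of all genes, respectively. The windows of Il4ra and Il21r overlap and share H3K4me1-marked regions, so their values are not independent. Il10ra had a cover close to that of Il21r with 2 Runx3-bound regions in place of 7. Il12rb2 had 5 Runx3-bound regions with a cover of 11.1% in a window of 124.9 kb, the longest of the 10.

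**Figure D2:**
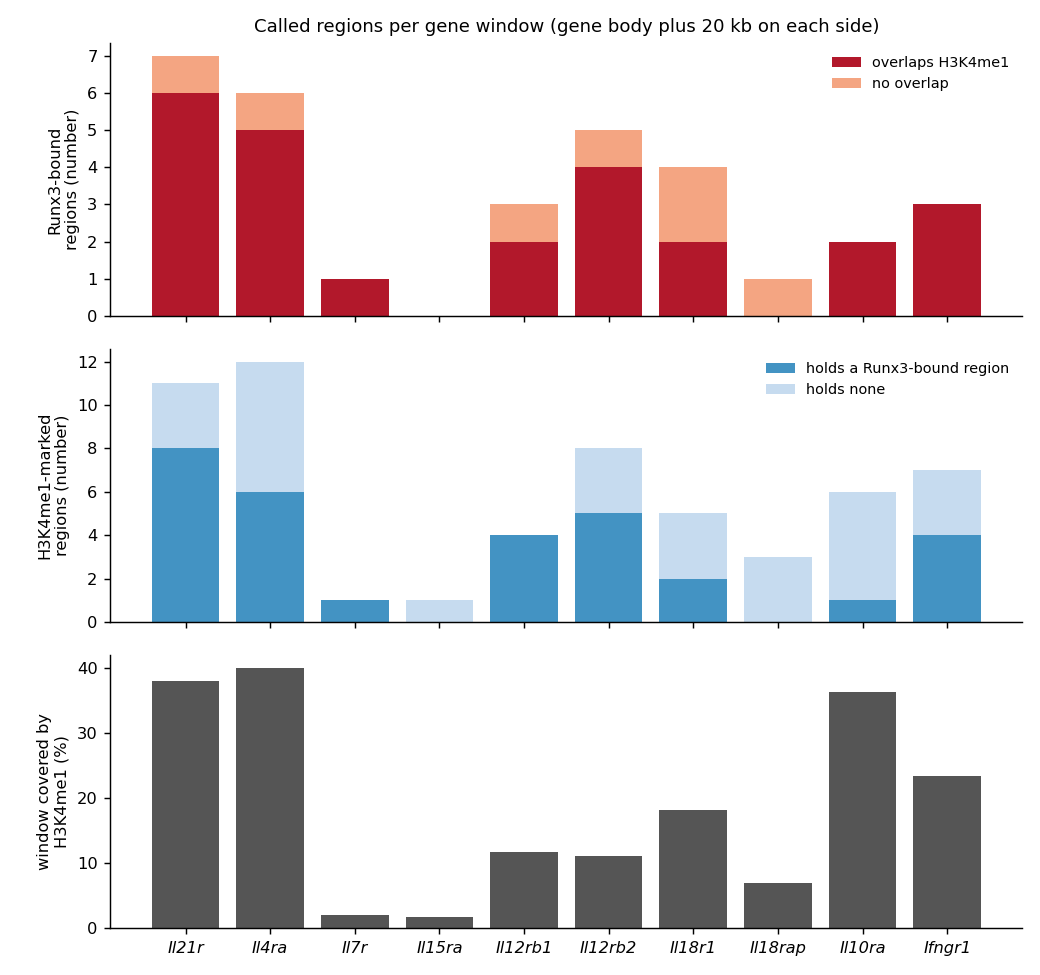
Called regions and H3K4me1 cover for each of the 10 genes. Bars give, from top to bottom, the number of Runx3-bound regions (dark: overlapping H3K4me1), the number of H3K4me1-marked regions (dark: holding a Runx3-bound region) and the percent of the window covered by H3K4me1. There is 1 value per gene and no error bar, since peaks were called once on joined reads. Regions in 2 windows are counted in both genes.

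The receptors of the common gamma chain family ranged from the most to the least occupied genes. Il21r (ENSMUSG00000030745.7, chr7:132746943-132777084, plus strand) encodes the IL-21-binding chain and Il4ra (ENSMUSG00000030748.7, chr7:132695785-132722986, plus strand) the IL-4-binding chain, which is also used for IL-13. They lie head to tail on chromosome 7, 23.956 kb apart. Of this stretch between the genes, 88.1% was H3K4me1-marked, in 8 regions. It held 5 whole Runx3-bound regions with 21 RUNX motifs in all, and a further region that reached into it from the start of Il21r. The widest, Il21r R2 (chr7:132735962-132737226, 1265 bp, 10.3 kb upstream of Il21r), was fully covered by H3K4me1 and held 11 RUNX motifs, 7 of them TGTGGT and 4 TGTGGC. Only 0.339% of all Runx3-bound regions were as wide, and 1 of the 27 regions had 11 or more RUNX motifs compared to 0.263% of all. Wide regions offer more bases for a motif, so these counts are not independent. Il21r R3 (chr7:132737229-132737803) began 2 bp after Il21r R2 ended and can be read as its continuation.

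At the start of Il21r itself, Il21r R5 (chr7:132746674-132747313, 640 bp, in the UTR and the bases before it) overlapped no H3K4me1-marked region. The nearest H3K4me1-marked region ended 535 bp before it on one side and the next began 3794 bp after it on the other. In contrast, Il21r R6 (chr7:132750783-132751317, 4.11 kb into the gene, in an intron) had 39.3% of its length covered, and its 3 RUNX motifs, all TGTGGT, lay within the central 200 bp. It also held 1 AP-1 motif and the 1 T-box motif (AGGTGTGA) of the 27 regions. Il21r R7 (chr7:132778950-132779527) lay downstream of the gene and was 57.8% covered.

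Il4ra had its closest Runx3-bound region, Il4ra R1 (chr7:132698867-132699535, 669 bp), in an intron 3.42 kb after its start. It was the one region of the 20 that lay 1 kb or more from any transcript start and overlapped no H3K4me1. It held 1 RUNX motif and 6 ETS motifs, and an H3K4me1-marked region of 5263 bp in the same gene began 725 bp further on and held no Runx3-bound region. Il4ra R2 (chr7:132724520-132725204, 685 bp) lay just downstream of the gene and spanned 2 H3K4me1-marked regions. The start of Il4ra had no Runx3-bound region within 1 kb, but an H3K4me1-marked region of 1015 bp lay just upstream of it.

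Il7r encodes the chain that binds IL-7, a survival cytokine of resting and memory T cells. Its window held 1 Runx3-bound region, Il7r R1 (chr15:9459408-9459815, 408 bp, mm9, gene on the minus strand at chr15:9435916-9459631), centred 0.0195 kb from the start. It covered the first exon with its UTR and coding bases and was itself fully inside the only H3K4me1-marked region of the window, of 1300 bp. The single RUNX motif, a TGTGGT on the strand of the gene, lay 14 bp from the centre in the 5′ UTR, and an AP-1 motif and 2 ETS motifs were also present. The next H3K4me1-marked regions were 33.852 kb and more from the gene body, outside the window.

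Il15ra encodes the chain that binds IL-15 and presents it to neighbouring cells. It had no Runx3-bound region in its window, and its only H3K4me1-marked region (chr2:11613903-11615040, 1138 bp) lay 12.4 kb upstream, in the UTR of Il2ra, the alpha chain of the IL-2 receptor. The closest Runx3-bound region was 49.8 kb upstream of the Il15ra start (chr2:11576643-11577495) and is counted at Il2ra, where the window held 6. A list of called peaks does not give an upper limit for binding at Il15ra, since the reads behind it were not analysed here.

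IL-12 and IL-18 act on activated CD8-TC to increase interferon gamma production, and each of their receptors has 2 chains. Il12rb2 encodes the signalling chain of the IL-12 receptor (chr6:67241312-67326182, minus strand). Its start was bound by Il12rb2 R4 (chr6:67325820-67326490, 671 bp), which overlapped no H3K4me1 and held 4 RUNX motifs of which none was TGTGGT (2 TGTGGC, 1 TGCGGT and 1 TGCGGC). Il12rb2 R5 (chr6:67328099-67328407, 309 bp), 2.07 kb upstream, was fully covered by H3K4me1. Il12rb2 R1 (chr6:67289305-67289857) lay 36.6 kb into the gene on an exon, 0.107 kb from the start of a shorter transcript, and was fully covered, and Il12rb2 R2 and R3 were intronic and at least 77.7% covered. Il12rb2 R3 (chr6:67317099-67317609) had no RUNX motif and 1 AP-1 motif.

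Il12rb1, the chain shared by the IL-12 and IL-23 receptors (chr8:73332348-73345323, plus strand), had 3 Runx3-bound regions but none within 1 kb of its start. Il12rb1 R1 (chr8:73330405-73331063, 659 bp, 1.61 kb upstream) was the widest and the nearest, was 84.5% covered by H3K4me1 and held no RUNX motif and 4 ETS motifs. Il12rb1 R2 (chr8:73335278-73335598, intronic, 94.1% covered) had 1 RUNX and 1 AP-1 motif. The third region (chr8:73363228-73363797) lay 31.2 kb from the start of Il12rb1 but 0.0795 kb from that of Arrdc2, overlapped no H3K4me1 and held 3 RUNX motifs, none of them TGTGGT. It was the one region of the 27 nearest to the start of a gene outside the 10, so its place among them follows from the 20 kb rule alone.

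Il18r1 (chr1:40522397-40557699) encodes the IL-18-binding chain and Il18rap (chr1:40572207-40608550) its accessory chain, both on the plus strand. Both starts were bound by Runx3 and neither of these regions overlapped H3K4me1. Il18r1 R1 (chr1:40522170-40522802, 633 bp) held 3 RUNX motifs, and the closest H3K4me1-marked regions were 70512 bp away on one side and 2944 bp on the other. A transcript annotated to Il1rl1, the IL-33 receptor, also overlaps this region, so the gene to which it belongs cannot be told apart. Il18rap R1 (chr1:40572084-40572550, 467 bp) held 1 RUNX and 5 ETS motifs, and H3K4me1-marked regions were 10082 bp and 6314 bp away. Il18r1 had in addition 2 intronic regions, Il18r1 R2 (chr1:40530422-40530878, fully covered) and the widest, Il18r1 R3 (chr1:40532450-40533102, 653 bp, 75.2% covered). Il18rap had none, and the 3 H3K4me1-marked regions of its window held no Runx3-bound region.

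Il10ra and Ifngr1 are the ligand-binding chains for IL-10 and for interferon gamma. No Runx3-bound region lay within 1 kb of either start, and no H3K4me1-marked region did. Both Runx3-bound regions at Il10ra (gene at chr9:45061922-45077232, minus strand) lay downstream. They were inside 1 H3K4me1-marked region of 8843 bp (chr9:45053475-45062317), a width reached by 0.205% of all H3K4me1-marked regions, which ended on the last exon of Il10ra and reached into BC049352. Il10ra R2 (chr9:45059973-45060622, 650 bp) was the wider and nearer one and had 1 AP-1 and no RUNX motif. Il10ra R1 (chr9:45055555-45055827, 273 bp, in an intron of BC049352) had 2 RUNX motifs. Another H3K4me1-marked region of 5323 bp (chr9:45081767-45087089), 7.20 kb upstream of the Il10ra start, held no Runx3-bound region. Nearest to the 20 kb limit from outside was a Runx3-bound region 22.596 kb upstream of Il10ra, and nearest from inside was the third region of Il12rb1, 17.905 kb from its gene body.

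All 3 Runx3-bound regions at Ifngr1 (chr10, plus strand) overlapped H3K4me1. Ifngr1 R1 (chr10:19297345-19298349, 1005 bp), 13.9 kb upstream, was the second widest of the 27 and held 4 RUNX motifs, all TGTGGT, 6 ETS motifs and 1 AP-1 motif. None of its RUNX motifs was in the central 200 bp, and it spanned 2 H3K4me1-marked regions 130 bp apart. Ifngr1 R2 (chr10:19316552-19316936, 4.99 kb into the gene) and R3 (chr10:19317841-19318379, 6.36 kb) were intronic and fully covered, each by its own H3K4me1-marked region.

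Runx3-bound regions at these genes mostly carried H3K4me1 away from starts and mostly lacked it at starts. Of the 27 regions, 21 overlapped H3K4me1 by at least 1 bp (77.8%, 95% Wilson interval 59.2 to 89.4%), compared to 57.3% of all Runx3-bound regions and 54.9% of those within 20 kb of a protein-coding gene. These intervals cover counting error only, and neighbouring regions share a locus, so they are not independent draws. Among regions 1 kb or more from any transcript start, 19 of 20 overlapped H3K4me1 compared to 70.6% of all such regions. Among those under 1 kb it was 2 of 7 compared to 20%. The 5 regions without H3K4me1 under 1 kb were at the starts of Il21r, Il18r1, Il18rap, Il12rb2 and Arrdc2. The 2 with it were at the start of Il7r and at the shorter transcript of Il12rb2. All 14 regions that lay over 5 kb from a transcript start overlapped H3K4me1, compared to 72.3% of all Runx3-bound regions at that distance. These 14 were 51.9% of the 27 compared to 56.4% of all Runx3-bound regions. Measured to 1 start per protein-coding gene, the share over 5 kb was 55.6% compared to 69.0%. The background includes regions far from any gene, so the sets are unlike.

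**Figure D3:**
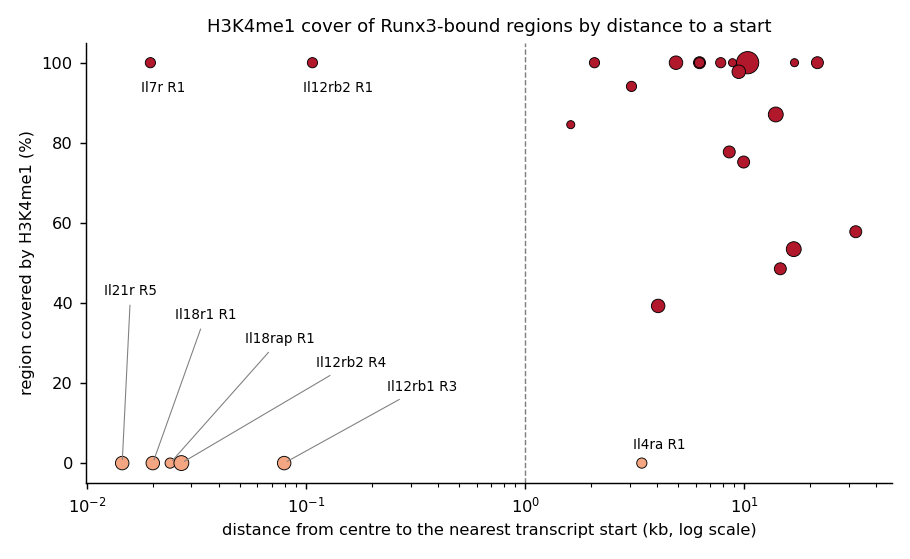
H3K4me1 cover of the 27 Runx3-bound regions against distance to a start. Each point is a region, the x axis is the distance in kb from its centre to the nearest transcript start on a log scale, the y axis is the percent of its length covered by H3K4me1, and the point size grows with the number of RUNX motifs. The dashed line is at 1 kb, to the left of which 5 of 7 regions are at 0%, and pale points overlap no H3K4me1.

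At the level of genes, 5 of 10 had a Runx3-bound region within 1 kb of the start, namely Il21r, Il7r, Il12rb2, Il18r1 and Il18rap, compared to 9.43% of all genes. Another set of 5, Il21r, Il4ra, Il7r, Il12rb1 and Il12rb2, had an H3K4me1-marked region within 1 kb of the start, compared to 8.26%. At Il21r and Il12rb2 both were called near the start but did not overlap, and at Il7r they overlapped. Of the 27 regions 15 lay in the body of the gene they are named by, 7 upstream of it and 5 downstream. By annotation 10 were intronic, 10 intergenic, 4 on a UTR and 3 on an exon with coding and UTR bases. These placements are given without a share over all Runx3-bound regions, so they describe the 27 only.

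Of the 21 marked regions, 8 touched 2 H3K4me1-marked regions and spanned the gap between them (38.1%, interval 20.8 to 59.1%), compared to 13.1% of all marked Runx3-bound regions. The gaps were 367 bp in Il21r R1, 319 bp in Il4ra R2, 244 bp in Il21r R7, 142 bp in Il12rb2 R2, 130 bp in Ifngr1 R1, 102 bp in Il12rb1 R1, 19 bp in Il12rb1 R2 and 13 bp in Il21r R3. Merging H3K4me1-marked regions under 1 kb apart, which left 28 of the 49, closes all 8 gaps. The share of 38.1% therefore depends on where the called mark was split. Il4ra R2, Il21r R1 and Il21r R3 also lay in the same stretch between Il4ra and Il21r. The other 13 marked regions touched 1 H3K4me1-marked region, and 11 of the 27 were fully covered. The median cover of a marked region was 100%, and also 100% over all marked Runx3-bound regions. Counted from the mark, Runx3 was called in 26 of the 49 H3K4me1-marked regions (53.1%, interval 39.4 to 66.3%) compared to 29.2% of all. A Runx3-bound region that spanned a gap was counted in both of its H3K4me1-marked regions, so the 26 are not independent draws. The median width of the 49 H3K4me1-marked regions was 1773 bp, and 1592 bp over all.

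**Figure D4:**
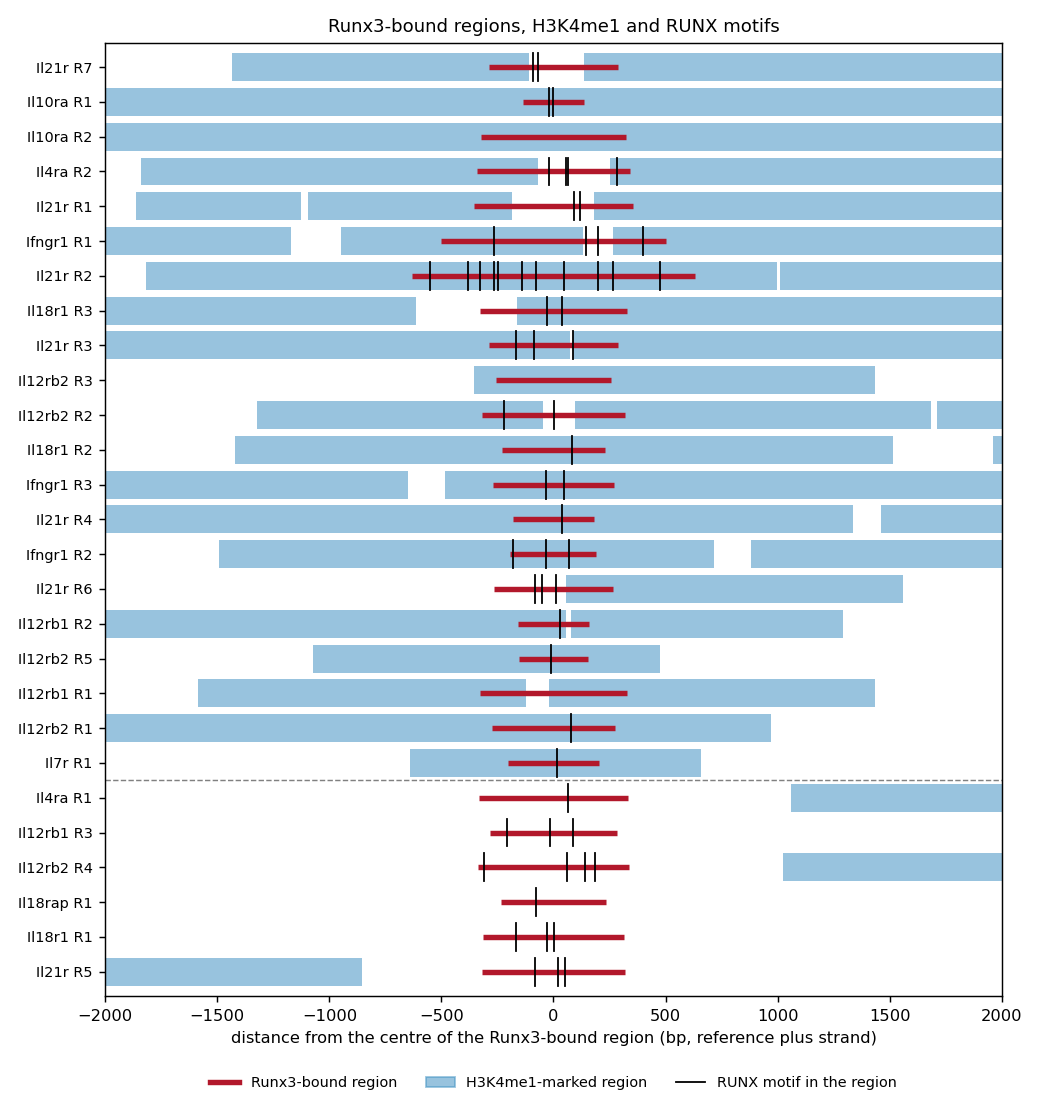
The 27 Runx3-bound regions aligned at their centres. The x axis is the distance in bp from the centre along the reference plus strand, red lines are the regions, blue boxes the H3K4me1-marked regions and black ticks the RUNX motifs within each region. Regions above the dashed line overlap H3K4me1 and those below do not, each set ordered by distance to a transcript start with the farthest on top. The gaps of 13 to 367 bp in H3K4me1 can be seen within 8 regions.

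Runx3-bound regions lay close to each other. A neighbour within 10 kb was present for 21 of 27 compared to 33.5% of all Runx3-bound regions. The 27 come from windows of which 6 of 10 held 3 or more regions, whereas the background includes regions far from genes. These shares are therefore not of like sets. The largest group was a run of 7 from Il4ra R2 to Il21r R6. The lone regions were Il7r R1, Il18rap R1, Il4ra R1, Il21r R7, Ifngr1 R1 and the third region of Il12rb1. Widths ran from 273 to 1265 bp with a median of 575 bp, and the median was 521 bp over all Runx3-bound regions. Median GC content was 48.7%, and 49.1% over all.

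The RUNX motif was present in 24 of the 27 regions compared to 92.6% of all Runx3-bound regions. There were 61 RUNX motifs in 15722 bp, or 3.88 per kb compared to 4.28 per kb over all regions. In the central 200 bp, a window of the same length in every region, 23 of 27 held the motif compared to 78.8% of all. The nearest motif was a median of 33.5 bp from the centre, and 38 bp over all. These values lay close to the background. By variant, TGTGGT was found in 21 of 27 regions compared to 69.6%, TGTGGC in 9 compared to 45.7%, TGCGGT in 5 compared to 20.8% and TGCGGC in 3 compared to 16.3%. TGTGGT made up 60.7% of the motifs and 52.0% of those in all regions. In the 21 regions with H3K4me1, 32 of 46 RUNX motifs were TGTGGT (69.6%), compared to 58.6% in all Runx3-bound regions with the mark. In the 6 without it 5 of 15 were (33.3%), compared to 42.3% in all regions without the mark, so the difference by mark was also present over all regions.

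Motifs of other TF families were also searched on both strands, and matches of different motifs can share bases. ETS motifs, as spelled above, were in 24 of 27 regions compared to 88.9%. AP-1 motifs were in 6 of 27 (95% Wilson interval 10.6 to 40.8%) compared to 13.5%, which lies within the interval. The AP-1 motifs were in Ifngr1 R1, Il7r R1, Il12rb2 R3, Il21r R6, Il12rb1 R2 and Il10ra R2, that is 1 region at each of 6 different genes. Of the 3 regions without a RUNX motif 2 held an AP-1 motif (interval 20.8 to 93.9%). The share was 12.2% of all Runx3-bound regions without a RUNX motif. STAT motifs (TTCNNNGAA), the sites of the factors through which most of these receptors signal, were in 10 of 27 compared to 21.5%. NFAT motifs (TGGAAA) were in 12 compared to 35.6% and the T-box motif (AGGTGTGA) in 1 compared to 3.92%. In the central 200 bp, a window of equal length, STAT motifs were in 3 of 27 regions (11.1%) compared to 10.7%, so the higher share in whole regions was not seen there. In the same window, ETS motifs were in 18 of 27 compared to 66.1%, AP-1 motifs in 3 compared to 6.49%, NFAT motifs in 6 compared to 13.9% and the T-box motif in 0 compared to 1.88%. A pair of RUNX motifs at most 50 bp apart was in 10 of 27 regions compared to 37.4%, and an ETS and a RUNX motif at that distance in 15 compared to 57.4%. A match describes letters of the reference and does not show that a factor was bound there.

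Other receptor genes were counted in the same windows, in lists drawn up with earlier results known. Over all protein-coding genes 34.2% had a Runx3-bound region in the window. All 3 IL-2 receptor genes had Runx3-bound regions, with 6 at Il2ra, 3 at Il2rb and 2 at Il2rg, and all 3 had one within 1 kb of the start. Of 9 partner chains of the 10 genes, which include Il2rb and Il2rg, 6 had Runx3-bound regions. Il10rb, Ifngr2 and Il23r had 4 each, and Il13ra1, Il27ra and Crlf2 had none. Il10rb and Ifngr2 are the second chains of the receptors whose first chains are Il10ra and Ifngr1, and both had a Runx3-bound region within 1 kb of the start, which Il10ra and Ifngr1 did not. Of 25 other interleukin and interferon receptor genes 13 had Runx3-bound regions, led by Il17ra with 5, Il6ra with 4, and Il1rl1 and Ifnar2 with 3 each. The 3 regions counted at Il1rl1 are Il18r1 R1, R2 and R3, which are among those of the 10 genes. The 12 with none were Il1r1, Il1r2, Il1rap, Il5ra, Il9r, Il13ra2, Il17rb, Il17rc, Il17re, Il22ra1, Il22ra2 and Il18bp.

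Receptors for haematopoietic growth factors and hormones had few Runx3-bound regions in their windows. Of 14 such genes 1, Lifr, had a Runx3-bound region, compared to 34.2% of all genes. An H3K4me1-marked region was present at 4 of the 14, compared to 39.4% of all genes. Csf1r, Csf2ra, Csf2rb, Csf2rb2, Csf3r, Epor, Kit, Flt3, Osmr, Ghr, Prlr, Lepr and Cntfr had no Runx3-bound region in the window. The median number of Runx3-bound regions per window was 3 for the 10 genes, 3 for the IL-2 receptor, 2 for partner chains, 1 for the other interleukin and interferon receptors and 0 for the growth factor and hormone receptors. The median window of the last list was 90.2 kb and that of the 10 genes 67.95 kb.

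**Figure D5:**
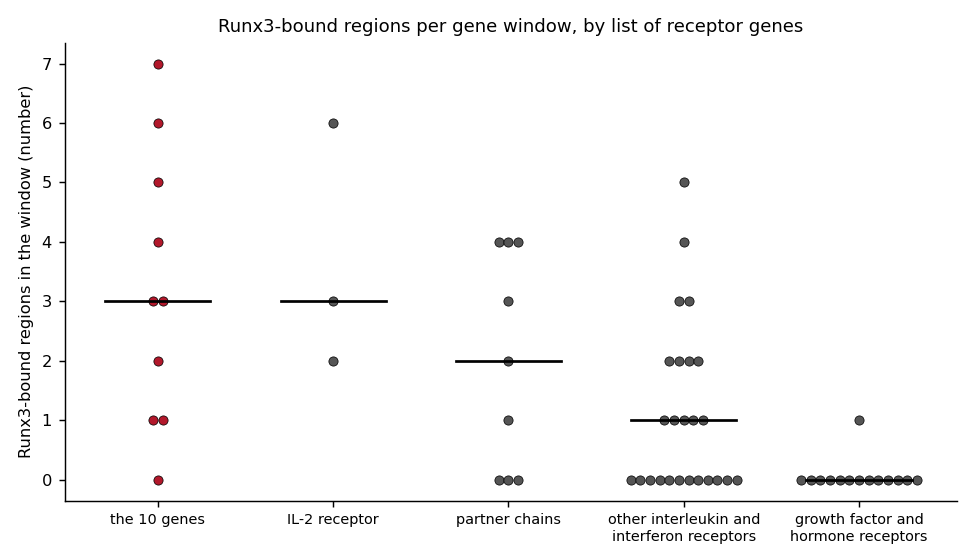
Runx3-bound regions per gene window for lists of receptor genes. Each point is a gene, the y axis is the number of Runx3-bound regions in the gene body plus 20 kb on each side, and lines are medians. The 10 genes (red) span 0 to 7, and 13 of the 14 growth factor and hormone receptor genes are at 0. Il2rb and Il2rg are in both the IL-2 receptor and the partner chain list.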

How the data were processed

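ChIP-seq libraries of IL-2-activated splenic CD8-TC comprised 2 Runx3, 2 NIS and 1 H3K4me1 precipitation. Per the labels and the methods of the study, the authors aligned reads of 40 to 42 bases to mm9 with ELAND, kept unique reads, joined repeats and called peaks with MACS 1.4 against NIS after scaling the larger read set down. The deposited values, in 2 lists, were chromosome positions in bp of each peak, with no score, p-value or read count. Joined reads hide the spread between repeats, unique reads leave out repeated sequence, and the lists carry no read numbers (the library totals that the study states were not used here), so counts of regions were compared within a list only.

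Member genes, lists of other receptors and motifs were chosen with earlier results of these data known, and 2 genes of the lists are not reported here. The named regions were, for each gene, the widest, the one nearest the start and all without H3K4me1, and, chosen after their values were seen, others on which a count rested. Gene models were GENCODE vM1 on NCBIM37 (mm9). Positions are counted from 1, overlap was at least 1 bp, and distance was from the region centre to the nearest start of any transcript, or to the start of the gene model where a gene is named. Background shares were taken over the 22350 protein-coding genes on chromosomes with called regions or over all regions of a list. No test was run, since there is 1 list per antibody. Interval and motif functions were tested on simulated data with 0 differences from direct counting. Counts were made with pandas 2.3.3 and NumPy 2.4.6 in Python 3.11.15 and plotted with matplotlib 3.10.9.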

Additional observations from a re-analysis of the deposited data

How the results depend on the processing

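Of 29 values under other settings for 7 results, 25 were classed as kept and 4 as moved. A kept value was not always a close one. With an extension of 50 kb the H3K4me1-marked regions numbered 71 in place of 49, and this was classed as kept. With no extension beyond the gene bodies the Runx3-bound regions numbered 15 in place of 27 and the H3K4me1-marked regions 21 in place of 49, as the shorter windows hold fewer regions. Merging H3K4me1-marked regions under 1 kb apart gave 28. A distance of 1 kb in place of 5 kb from a start raised the share beyond it from 51.9 to 74.1%, compared to 73.7% of all Runx3-bound regions. With an extension of 50 kb the Runx3-bound regions numbered 37. Then 10 of 10 genes had one, since a region 49.8 kb upstream of Il15ra was included. The share that overlapped H3K4me1 was 64.9% with this extension and 66.7% with no extension. It was 77.8% as reported and 57.3% of all Runx3-bound regions. Where 50% of a region had to be covered, the share with H3K4me1 was 70.4%, compared to 48.9% of all. No paired analysis was possible because peaks had been called on joined reads, so that each list is a single value per antibody. Replicates could not be left out for the same reason. The lists limit every count to regions that passed the authors' peak caller, so a gene without a region is one without a called peak.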
